A study of Mus musculus with 12 samples.

Results

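Subunit genes of the fast inhibitory receptors of the spinal cord were followed through spinal cord injury and through genetic reduction of pericyte scarring. They are Glra1, Glra2, Glra3 and Glrb, which encode the alpha 1, alpha 2, alpha 3 and beta subunits of the glycine receptor, and Gabra2, Gabra3, Gabra4 and Gabra5, which encode alpha subunits of the GABA-A receptor. The 8 genes were taken by symbol and joined through their Ensembl identifiers to a count table of 37991 genes. All 8 passed the filter on low counts, which left 16473 genes for testing.

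Total RNA was sequenced in bulk from 12 mice in 3 groups of 4. All mice were on the C57bl/6J background, were adults of more than 8 weeks, and carried the alleles Glast-CreERT2, R26R-YFP and Rasless. The CreERT2 recombinase is driven by the Glast (Slc1a3) promoter, which is used to reach type A pericytes, and needs tamoxifen to act. Tamoxifen lesions came from mice given 2 mg of tamoxifen on each of 5 days, followed by 7 days of clearing, a dorsal hemisection at high thoracic level and collection of the injury site 14 days later. Vehicle lesions came from mice of the same genotype given the solvent alone before the same injury. Uninjured cord segments came from vehicle-injected mice of that genotype. The submitters described scarring as dense in the vehicle lesions and attenuated in the tamoxifen lesions. Each library is named by its mouse number, and p-values measure the spread between these mice.

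Library totals lay between 7967970 and 12581324 counts. Among the line's genes, Hras1 averaged 15.2 ± 1.51, 15.4 ± 1.28 and 17.3 ± 2.68 counts-per-million (CPM, scaled between libraries by trimmed means, TMM) in tamoxifen lesions, vehicle lesions and uninjured cord (SD, n = 4 each), and Nras averaged 17.9 ± 2.46, 18.3 ± 3.73 and 12.4 ± 2.92 CPM. Slc1a3, whose promoter drives the recombinase, averaged 213 ± 19.7, 196 ± 11.5 and 139.7 ± 12.7 CPM in the same groups. Pericyte and fibroblast markers, 8 genes, summed to 716 to 1132 CPM in tamoxifen lesions, 2916 to 7901 CPM in vehicle lesions and 270.0 to 630 CPM in uninjured cord. Oligodendrocyte markers, as a check of the tissue, summed to 20080 to 21156, 17159 to 20388 and 16497 to 20579 CPM in the same groups. By Xist and Y-linked genes, all 4 tamoxifen libraries were female, against 1 of 4 vehicle and 3 of 4 uninjured libraries. Tamoxifen libraries 513, 549 and 564 carried sample names 106 to 108, and the other 9 libraries carried names between 1 and 20. Skeletal muscle transcripts were high in 0 tamoxifen, 3 vehicle (402, 429 and 457) and 2 uninjured libraries (377 and 385).

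Glycine and GABA-A receptors are chloride channels built from 5 subunits around a central pore, and their opening by transmitter usually inhibits mature neurons. In the cord, glycine receptors with the alpha 1 subunit carry much of the inhibition of motor circuits, alpha 3 is known from the superficial dorsal horn, and alpha 2 is prominent before birth. The beta subunit binds gephyrin, the scaffold that holds the receptors under inhibitory terminals. Among GABA-A subunits, alpha 2 and alpha 3 are known from synapses of spinal neurons, while alpha 4 and alpha 5 are best known outside synapses, where they mediate tonic currents.

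The 8 genes belong to 1 superfamily. To show what the members share and where they part, the 69 coding bases of that second membrane-spanning segment are given here 5′ to 3′, from the longest reading frame of GENCODE M21 transcripts. Capitals mark bases that differ from Glra1.
Glra1: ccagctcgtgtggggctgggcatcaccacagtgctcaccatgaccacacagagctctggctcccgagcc
Glra2: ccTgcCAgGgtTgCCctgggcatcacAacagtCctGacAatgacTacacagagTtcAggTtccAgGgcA
Glra3: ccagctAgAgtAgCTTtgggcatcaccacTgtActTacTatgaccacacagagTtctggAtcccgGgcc
Glrb: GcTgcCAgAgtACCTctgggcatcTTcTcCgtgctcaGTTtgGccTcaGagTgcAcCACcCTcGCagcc
Gabra2: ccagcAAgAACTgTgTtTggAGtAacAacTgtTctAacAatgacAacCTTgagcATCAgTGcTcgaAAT
Gabra3: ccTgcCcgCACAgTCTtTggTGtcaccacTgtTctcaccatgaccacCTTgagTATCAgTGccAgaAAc
Gabra4: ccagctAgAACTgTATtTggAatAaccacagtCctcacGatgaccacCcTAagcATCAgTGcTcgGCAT
Gabra5: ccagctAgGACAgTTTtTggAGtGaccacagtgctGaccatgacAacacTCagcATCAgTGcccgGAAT
Against Glra1, Glra3 was identical at 81.2% and Glra2 at 73.9% of these bases, whereas the beta subunit gene Glrb was identical at 59.4%. The GABA-A genes ranged between 55.1% for Gabra2 and 62.3% for Gabra5. Over the whole coding sequence, the 3 glycine alpha genes shared 72.9% to 75.0% of aligned bases with one another and the 4 GABA-A genes shared 66.6% to 71.9%. Long identical stretches were nearly absent among the members, with at most 2 shared words of 31 bases between any member and the rest. Some words did recur in transcripts of other genes on either strand, up to 172 on the same strand for Glrb of its 4710, and how the deposited counts treated such reads is not given in the sources used here.

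**Figure D1:**
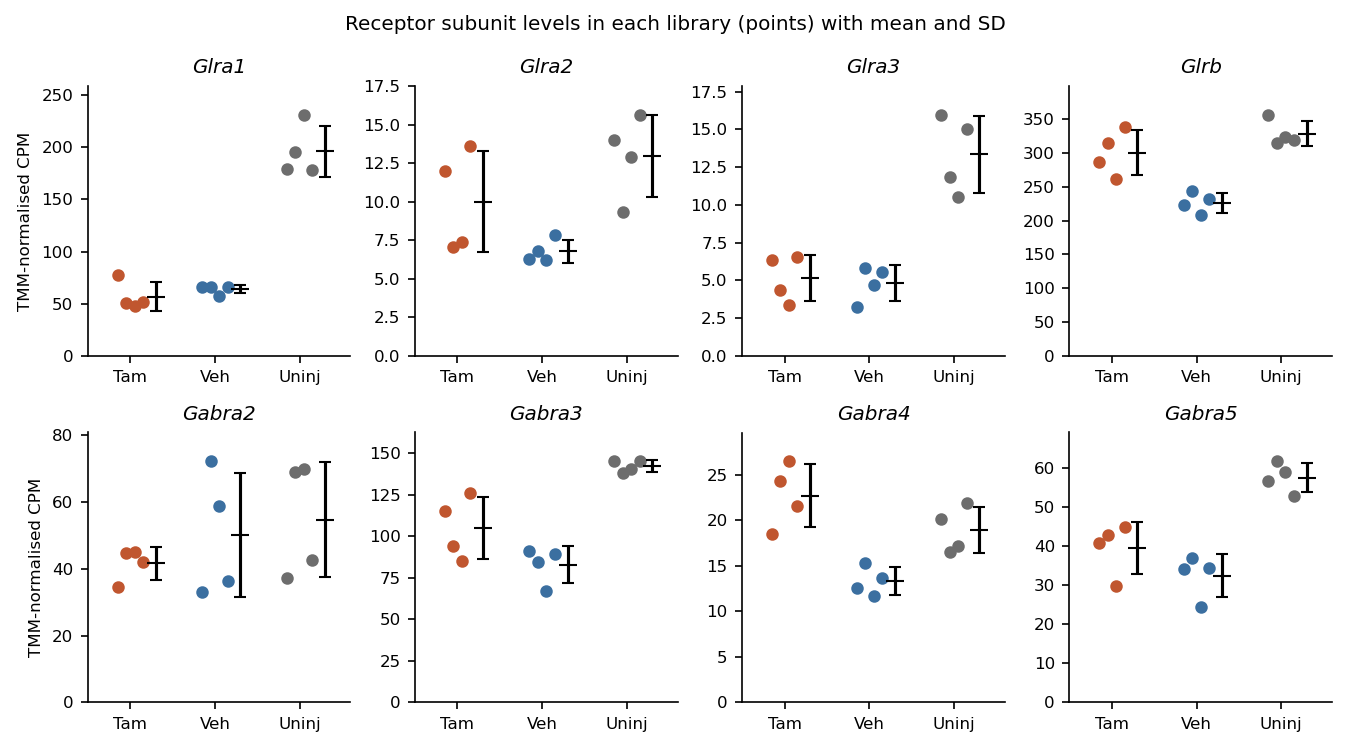
TMM-normalised CPM (y axis, from 0) of each of the 8 receptor subunit genes in every library. Points are mice, with the mean and SD to their right, for tamoxifen lesions (Tam), vehicle lesions (Veh) and uninjured cord (Uninj). All uninjured Glra1 points lie between 178 and 231 CPM, above all lesion points, which lie between 48.3 and 77.2 CPM, and all tamoxifen Gabra4 points lie above all vehicle points.

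Levels of different genes can be set against each other only per transcript length, for which the authors' FPKM values (fragments scaled by transcript length and library depth) were used. Glrb had the highest FPKM in every group, at 91.5 ± 12.95 in tamoxifen lesions, 66.5 ± 3.46 in vehicle lesions and 99.6 ± 4.16 in uninjured cord (SD, n = 4 each). In uninjured cord the order below Glrb was Glra1, Gabra3, Gabra5, Gabra2, Glra3, Gabra4 and Glra2, and ranges of neighbours overlapped only for Gabra5 with Gabra2 and for Gabra4 with Glra2. In vehicle lesions Glra1 still stood second at 27.7 ± 1.53 FPKM. In tamoxifen lesions Gabra3, at 27.6 ± 4.86 FPKM, stood above Glra1, at 24.6 ± 4.88 FPKM, but their ranges over libraries overlapped. The lowest 3 places were held in every group by Gabra4, Glra2 and Glra3, with group means between 1.95 and 6.32 FPKM. In uninjured cord Glra3 stood above Gabra4 with no overlap. In lesions the ranges of adjacent genes among these 3 overlapped. Gabra4 lay wholly above Glra3 in tamoxifen lesions and wholly above Glra2 in vehicle lesions.

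Nearly the whole set was lower in vehicle lesions than in uninjured cord. In vehicle lesions against uninjured cord, 7 of the 8 genes were lower and none was higher, with Gabra2 the exception, at an edgeR adjusted p threshold of 0.05. The background was high, since 50.8% of all genes tested were called in this comparison, 24.1% of them lower and 26.7% higher as shares of the genes tested. The median log2 change of the 8 genes was -0.80, beside 0.02 over all genes tested. Of the vehicle lesions 3 of 4 were male, against 1 of 4 uninjured cords. High in muscle transcripts were 3 of 4 vehicle lesions and 2 of 4 uninjured cords. With a term for sex, 7 of 8 genes were lower in edgeR, where 46.2% of all genes were called, 22% lower and 24.2% higher. The part of muscle tissue was not tested. Without the libraries high in muscle transcripts, which leaves 1 vehicle library, 0 of 8 genes were called in edgeR, where 1.7% of all genes were (7 of 8 at an unadjusted p under 0.05, as were 22.5% of all genes). In tamoxifen lesions against uninjured cord, 4 of 8 genes were lower (Glra1, Glra3, Gabra3 and Gabra5) and none was higher, where 48.9% of all genes were called, 22.7% lower and 26.3% higher. Here the median log2 change of the 8 genes was -0.42, beside 0.01 over all genes. The sample name series, 106 to 108 against 1 to 20, sets 3 of the 4 tamoxifen libraries apart from every uninjured library. With a term for it, 1 of 8 genes was lower in edgeR and none higher, where 11.8% of all genes were called, 4.29% lower and 7.55% higher. With a term for sex, 4 of 8 were lower and 1 higher, where 43.8% of all genes were called, 19.9% lower and 24% higher. In tamoxifen against vehicle lesions, 2 of 8 genes were higher (Glrb and Gabra4) and none was lower, where 16.1% of all genes were called, 7.79% higher and 8.33% lower. The median log2 change was 0.31, beside 0.00 over all genes. Single libraries moved these counts. Without 549, 4 of the 8 were higher, where 2368 of 16671 genes were called, 1165 of them higher. Genes called over the whole table, 2655 here, were 4631 without 452, 1688 without 457, 1324 without 564 and 1236 without 513. The comparisons share their libraries pairwise, so their values stand side by side and are not independent. In bulk tissue, fewer cells of a type and less RNA per cell cannot be told apart.

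**Figure D2:**
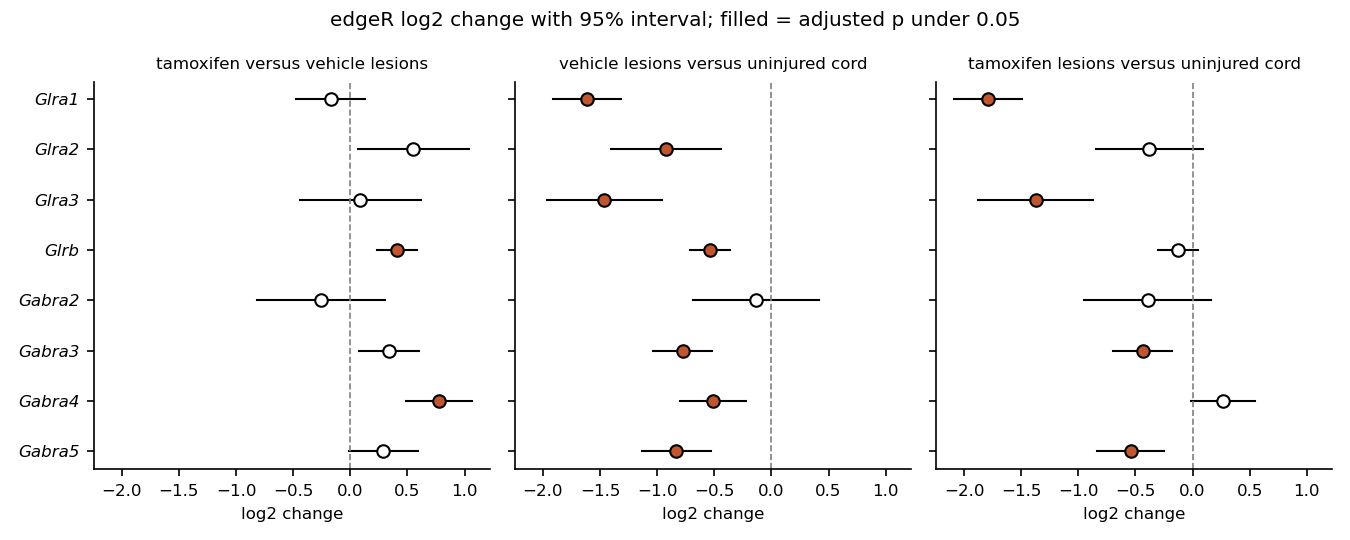
Log2 change of each receptor subunit gene in the 3 comparisons (x axis), from edgeR, with lines for 95% intervals. Filled points have an adjusted p under 0.05 over all 16473 genes tested. Filled points lie left of 0 for 7 genes in vehicle lesions versus uninjured cord and for 4 genes in tamoxifen lesions versus uninjured cord, and right of 0 for Glrb and Gabra4 in tamoxifen versus vehicle lesions.

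Glra1, the adult alpha subunit of the glycine receptor, had the largest fall of the 8 genes in both lesion groups. Its level was 77.2, 50.7, 48.3 and 51.4 CPM in tamoxifen lesions 452, 513, 549 and 564, 65.6, 66.2, 57.8 and 66.2 CPM in vehicle lesions 402, 428, 429 and 457, and 179, 195, 231 and 178 CPM in uninjured cords 376, 377, 385 and 467. Every lesion lay far below every uninjured cord, while the lesion groups overlapped through library 452, the highest of the tamoxifen group. In vehicle lesions Glra1 stood at 0.326 of the uninjured level (log2 change -1.62, SE 0.14, edgeR adjusted p = 4.12e-06). In tamoxifen lesions the ratio to uninjured cord was 0.289 (log2 change -1.79, SE 0.14, edgeR adjusted p = 1.43e-05). Between the lesion groups the log2 change was -0.17, with a 95% interval of -0.47 to 0.12 (edgeR adjusted p = 0.399). That value rested on 1 library: without 452 it was -0.35 (edgeR adjusted p = 0.014). Library 452 is the only tamoxifen library with a sample name between 1 and 20, where all vehicle libraries lie. Without it, lesion group and sample name series cannot be told apart. With a term for the series the sign of the change turned, as given below.

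Glra3, the glycine alpha subunit known from pain-processing laminae of the dorsal horn, was also lower in both lesion groups than in uninjured cord. Its 4 tamoxifen lesions had 6.35, 4.38, 3.38 and 6.52 CPM, its vehicle lesions 3.21, 5.80, 4.68 and 5.57 CPM, and its uninjured cords 16.0, 11.8, 10.5 and 15.0 CPM. No lesion reached the lowest uninjured cord, and the lesion groups lay over each other. The ratio to uninjured cord was 0.386 in tamoxifen lesions (edgeR adjusted p = 0.000494) and 0.363 in vehicle lesions (edgeR adjusted p = 0.000233). The tamoxifen call is limited by the sample name series, since only 1 of the 8 members was called against uninjured cord with a term for it. Tamoxifen and vehicle lesions differed by 0.09 on the log2 scale, with a 95% interval of -0.44 to 0.62 (edgeR adjusted p = 0.828).

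Glra2, the alpha subunit prominent in the developing cord, split the tamoxifen group. Tamoxifen lesions had 11.98, 7.08, 7.37 and 13.6 CPM, vehicle lesions 6.30, 6.79, 6.24 and 7.84 CPM, and uninjured cords 14.0, 9.34, 12.9 and 15.6 CPM. Libraries 452 and 564 lay inside the uninjured range, whereas 513 and 549 lay inside the vehicle range. Vehicle lesions had 0.526 of the uninjured level without overlap (log2 change -0.93, SE 0.22, edgeR adjusted p = 0.00374). Tamoxifen lesions did not pass the test against uninjured cord (log2 change -0.38, edgeR adjusted p = 0.166) or against vehicle lesions (log2 change 0.55, edgeR adjusted p = 0.108). Without library 564 the difference from uninjured cord was -0.57 (edgeR adjusted p = 0.0445).

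Glrb, the beta subunit through which glycine receptors attach to gephyrin, was higher in tamoxifen than in vehicle lesions. Tamoxifen lesions had 287, 315, 261 and 338 CPM, vehicle lesions 223, 243, 208 and 232 CPM, and uninjured cords 356, 315, 324 and 319 CPM. Every tamoxifen lesion stood above every vehicle lesion, and lesions 513 and 564 reached the uninjured range. Glrb was 1.32 times as high in tamoxifen as in vehicle lesions (log2 change 0.41, SE 0.08, edgeR adjusted p = 0.00782). With a term for the sample name series, the later of which holds 3 of the 4 tamoxifen libraries and no other, the change was 0.34 and not called (edgeR adjusted p = 0.274), and without the libraries high in muscle transcripts it was 0.31 (edgeR adjusted p = 0.647). In vehicle lesions it stood at 0.69 of the uninjured level (log2 change -0.54, SE 0.08, edgeR adjusted p = 0.000162). Tamoxifen lesions and uninjured cord differed by -0.13 on the log2 scale, with a 95% interval of -0.30 to 0.04 (edgeR adjusted p = 0.2).

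The balance of glycine alpha to beta transcripts per length differed between all 3 groups. Summed FPKM of Glra1, Glra2 and Glra3 equalled 27.3% to 45.8% of Glrb FPKM in tamoxifen lesions, 47.3% to 49.7% in vehicle lesions and 81.6% to 105% in uninjured cord. The 3 groups did not overlap in this ratio, but the tamoxifen values ran with the sample name series. Library 452, of the earlier series like every vehicle library, had 45.8%. Libraries 513, 549 and 564, of the later series, had 27.3%, 32.0% and 28.1%. The part of the series was not tested. Within the alpha genes, Glra1 made up 82.0% ± 4.53 of summed FPKM in tamoxifen lesions, 86.4% ± 2.51 in vehicle lesions and 88.8% ± 1.98 in uninjured cord (SD, n = 4 each). Glra2 made up 7.76% to 13.8% in tamoxifen lesions, 5.42% to 6.83% in vehicle lesions and 3.06% to 5.03% in uninjured cord, again without overlap. Glra3 shares overlapped in all groups, between 3.92% and 10.98%. These shares are descriptions of the deposited FPKM values and were not tested.

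**Figure D3:**
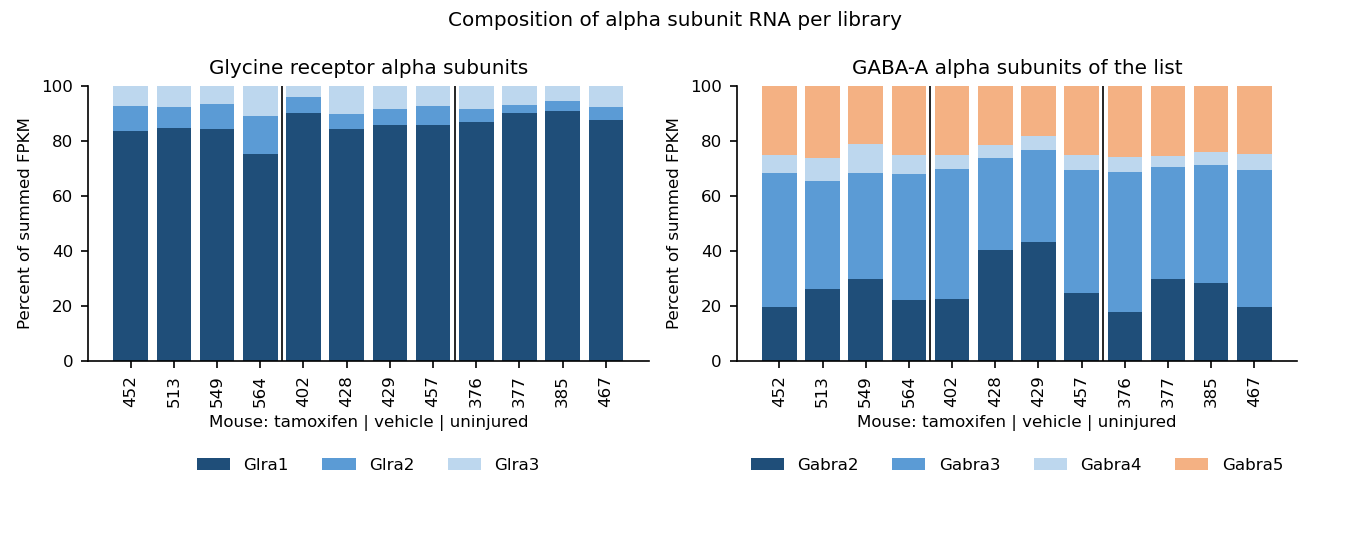
Percent of summed FPKM (y axis) held by each glycine receptor alpha gene (left) and by each GABA-A alpha gene of the list (right), 1 bar per mouse, with tamoxifen lesions, vehicle lesions and uninjured cord separated by lines. Glra1 holds at least 75.2% of the glycine alpha sum in all 12 libraries, and Gabra4 holds 6.42% to 10.5% of its sum in tamoxifen lesions, against 4.84% to 5.43% in vehicle lesions.

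Gabra4, an alpha subunit best known from extrasynaptic GABA-A receptors, showed the largest difference between the lesion groups. Tamoxifen lesions had 18.5, 24.3, 26.4 and 21.6 CPM, vehicle lesions 12.6, 15.3, 11.7 and 13.6 CPM, and uninjured cords 20.1, 16.5, 17.1 and 21.9 CPM. All tamoxifen lesions lay above all vehicle lesions, and 513 and 549 lay above every uninjured cord. The level in tamoxifen lesions was 1.71 times that in vehicle lesions (log2 change 0.78, SE 0.13, edgeR adjusted p = 0.00425). With each library left out in turn, the change stayed between 0.70 and 0.87. The call was lost with a term for the sample name series (0.48, edgeR adjusted p = 0.295) and without the libraries high in muscle transcripts (0.57, edgeR adjusted p = 0.645). Vehicle lesions stood at 0.703 of the uninjured level (edgeR adjusted p = 0.00647). Tamoxifen lesions differed from uninjured cord by 0.27 on the log2 scale, with a 95% interval of -0.01 to 0.55 (edgeR adjusted p = 0.103). Without library 452 this was 0.34 (edgeR adjusted p = 0.037), but tamoxifen lesions and uninjured cords then share no sample name series. Group and series cannot be told apart in that fit.

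Gabra3 had the highest mean FPKM of the GABA-A members in every group. It had 116, 94.1, 85.0 and 126 CPM in tamoxifen lesions, 91.2, 84.7, 67.2 and 89.1 CPM in vehicle lesions, and 145, 138, 141 and 145 CPM in uninjured cord. Uninjured cords were tightly grouped above all lesions, and tamoxifen lesions 452, 513 and 564 exceeded every vehicle lesion. The ratio to uninjured cord was 0.738 in tamoxifen lesions (edgeR adjusted p = 0.00879) and 0.584 in vehicle lesions (edgeR adjusted p = 0.000181). For the tamoxifen call the limit of the sample name series applies, as only 1 of the 8 members passed with that term. The difference between the lesion groups, 0.34 on the log2 scale (SE 0.12), did not pass the test (edgeR adjusted p = 0.0695), and passed it without library 549 (log2 change 0.43, edgeR adjusted p = 0.0276).

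Gabra5, the other tonic-current subunit of the list, had 40.7, 42.9, 29.8 and 44.9 CPM in tamoxifen lesions, 34.1, 36.9, 24.4 and 34.3 CPM in vehicle lesions, and 56.7, 61.8, 59.1 and 52.9 CPM in uninjured cord. Lesions of both kinds lay below the uninjured range, and 549 among tamoxifen lesions and 429 among vehicle lesions were the lowest of their groups. The ratio to uninjured cord was 0.686 in tamoxifen lesions (edgeR adjusted p = 0.00572) and 0.562 in vehicle lesions (edgeR adjusted p = 0.000305). Again the tamoxifen call is limited by the sample name series, since only 1 of the 8 members passed with a term for it. Between lesion groups the log2 change was 0.29 (edgeR adjusted p = 0.165), and 0.41 without library 549 (edgeR adjusted p = 0.0442).

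Gabra2 passed the test in none of the 3 comparisons (edgeR adjusted p = 0.509, 0.687 and 0.221 for tamoxifen against vehicle, vehicle against uninjured and tamoxifen against uninjured). Its tamoxifen lesions had 34.5, 44.7, 45.1 and 42.2 CPM, its vehicle lesions 32.9, 72.1, 58.7 and 36.5 CPM, and its uninjured cords 37.1, 68.9, 69.9 and 42.8 CPM. Vehicle lesions 428 and 429 and uninjured cords 377 and 385 stood between 58.7 and 72.1 CPM, and the other 8 libraries between 32.9 and 45.1 CPM, so the wide spread lay inside the vehicle and uninjured groups. Of the 4 high libraries, 428 was male and low in muscle transcripts, and 377, 385 and 429 were female and high in them. Of the 8 low libraries, 402 and 457 were also high in muscle transcripts, and 376, 452, 513, 549 and 564 were also female. The part of sex and muscle tissue in this spread was not tested. The log2 change was -0.26 between tamoxifen and vehicle lesions, with a 95% interval of -0.82 to 0.30, and -0.14 between vehicle lesions and uninjured cord, with an interval of -0.69 to 0.42. The second value turned to 0.063 with a term for sex (edgeR adjusted p = 0.877) and to 0.82 without the libraries high in muscle transcripts (edgeR adjusted p = 0.0731). Intervals this wide leave room for changes of the size seen in other members.

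Among the 4 GABA-A alphas of the list, Gabra3 held 38.5% to 48.7% of summed FPKM in tamoxifen lesions, 33.5% to 47.0% in vehicle lesions and 40.5% to 51.2% in uninjured cord. The Gabra4 share averaged 8.03% ± 1.86 for tamoxifen, 5.18% ± 0.283 for vehicle and 5.01% ± 0.860 for uninjured libraries (SD, n = 4 each). Its tamoxifen share did not overlap that of either other group.

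Of 16 further glycine and GABA-A subunit genes, 12 were measured well enough to test. In tamoxifen against vehicle lesions 2 of 12 were higher and none lower, where 7.79% of all genes were higher and 8.33% lower. In vehicle lesions against uninjured cord 8 were lower and none higher, where 24.1% of all genes were lower and 26.7% higher. In tamoxifen lesions against uninjured cord 6 were lower and 1 higher, where 22.7% of all genes were lower and 26.3% higher. These shares also apply to the gene lists below. Gabrg1, which encodes a gamma subunit, was among the genes higher in tamoxifen than in vehicle lesions (log2 change 0.53, edgeR adjusted p = 0.01). Gabrg1 averaged 75.5 ± 10.9 CPM in the tamoxifen group, 52.3 ± 7.76 CPM in the vehicle group and 52.2 ± 2.43 CPM in the uninjured group. Its tamoxifen range of 61.8 to 85.3 CPM overlapped the vehicle range of 47.5 to 63.8 CPM and lay above the uninjured range of 49.6 to 55.1 CPM. Gabrg1 was the single subunit gene tested that was higher in tamoxifen lesions than in uninjured cord (log2 change 0.54, edgeR adjusted p = 0.00195). As for the members, the later sample name series holds 3 tamoxifen libraries and no other, which limits both comparisons.

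Genes for beta subunits, which most GABA-A channels need for assembly, were also measured. Gabrb2 was lower than uninjured cord in both lesion groups, with log2 changes of -0.64 in tamoxifen and -0.91 in vehicle lesions (edgeR adjusted p = 0.000178 and 1.21e-05). Gabrb1 was lower in vehicle lesions (log2 change -0.42, edgeR adjusted p = 0.00706), and its value in tamoxifen lesions against uninjured cord was -0.20 (edgeR adjusted p = 0.155). Of the rarer subunits, Gabrq, which encodes theta, had log2 changes of -1.04 in tamoxifen and -1.35 in vehicle lesions against uninjured cord, and Gabrg3 had -0.70 and -0.91, all past the test. Glra4, at 0.915 ± 0.304, 0.391 ± 0.219 and 1.34 ± 0.430 CPM in tamoxifen lesions, vehicle lesions and uninjured cord, was lower in vehicle lesions than in uninjured cord (edgeR adjusted p = 0.00419).

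Genes that place receptors at synapses followed in part. Of all genes, 7.79% were higher in tamoxifen against vehicle lesions, and 24.1% and 22.7% were lower in vehicle and tamoxifen lesions against uninjured cord. Of 20 scaffold and assembly genes, 4 were higher (Gabarapl2, Gabarapl1, Ric3 and Gphn) and none lower in tamoxifen against vehicle lesions (median log2 change 0.03), 15 were lower and 1 higher in vehicle lesions against uninjured cord (median -0.40), and 13 were lower and 2 higher in tamoxifen lesions against uninjured cord (median -0.40). Gphn, which encodes gephyrin, averaged 83.3 ± 3.09, 73.7 ± 4.26 and 97.9 ± 3.62 CPM in tamoxifen lesions, vehicle lesions and uninjured cord, without overlap. Its change between lesion groups was small (log2 change 0.18, edgeR adjusted p = 0.0467) and missed the threshold under several alternatives, such as library totals alone (0.15, adjusted p = 0.0772). Gabarapl2, a relative of the GABA-A receptor-associated protein gene, had a log2 change of 1.95 between lesion groups from counts but 0.30 from FPKM (limma adjusted p = 0.0787 with 1 added). Its ratio of CPM to FPKM was 1.73 higher on the log2 scale in the 3 libraries with sample names 106 to 108 than in the other 9. No member showed such a step, and their differences by the same measure lay between -0.12 and -0.01.

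Genes of transmitter supply and clearance, not all of them neuronal, were also mostly lower in lesions than in uninjured cord. Among all genes, 22.7% were lower in tamoxifen and 24.1% in vehicle lesions, and 7.79% were higher in tamoxifen than in vehicle lesions. Of 9 genes for synthesis, release and uptake of glycine and GABA, 2 were higher in tamoxifen than in vehicle lesions (median log2 change of the 9 genes 0.22), and 8 were lower than in uninjured cord in each lesion group (medians -0.56 in tamoxifen and -0.67 in vehicle lesions). Slc32a1, the vesicular transporter of both transmitters, averaged 126 ± 22.9, 103 ± 15.6 and 213 ± 13.3 CPM in tamoxifen lesions, vehicle lesions and uninjured cord. Slc6a5, the neuronal glycine transporter, averaged 382 ± 58.3, 354 ± 32.9 and 640 ± 31.6 CPM in the same order. The GABA-synthesising enzymes Gad1 and Gad2 had log2 changes of -0.56 and -0.68 in tamoxifen lesions, and -0.89 and -0.94 in vehicle lesions, against uninjured cord. The 2 genes higher in tamoxifen than in vehicle lesions act in GABA clearance: Slc6a11, a GABA transporter found in astrocytes, by a log2 change of 0.40 (edgeR adjusted p = 0.00701), and Abat, the GABA-degrading transaminase, by 0.22 (edgeR adjusted p = 0.0164).

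The chloride gradient sets what these channels do. Slc12a5, the neuronal chloride exporter KCC2, averaged 426 ± 66.5 CPM in tamoxifen lesions, 406 ± 55.4 CPM in vehicle lesions and 750 ± 20.3 CPM in uninjured cord. Both lesion groups were lower than uninjured cord (edgeR adjusted p = 0.000149 in tamoxifen and 5e-05 in vehicle lesions), and the lesion groups overlapped. Of the 5 genes for chloride transport and GABA-B receptors, 3 were lower in each lesion group than in uninjured cord, and none passed between lesion groups in edgeR.

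Ionotropic glutamate receptor genes, the excitatory counterpart, were not spared. Of 18 tested, 16 were lower in tamoxifen lesions and 17 in vehicle lesions than in uninjured cord, with medians of -0.54 and -0.65. Of all genes, 22.7% and 24.1% were lower in these comparisons. Between the lesion groups 1 was higher, beside 7.79% of all genes, and the median of the 18 was 0.06. That gene was Grin2a, an NMDA receptor subunit, with a log2 change of 0.77 from counts (edgeR adjusted p = 0.0279). Its sign was negative from FPKM (-0.08 with 1 added), and like Gabarapl2 its counting differed between the sample name series.

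Markers of neurons as a whole moved with the receptor genes. Over all genes, 7.79% were higher between lesion groups, and 24.1% and 22.7% were lower in vehicle and tamoxifen lesions than in uninjured cord. Of 19 neuron markers, 6 were higher and none lower in tamoxifen against vehicle lesions (median log2 change 0.23), 18 were lower and none higher in vehicle lesions against uninjured cord (median -0.59), and 12 were lower and none higher in tamoxifen lesions against uninjured cord (median -0.40). Their summed level was 8341 to 9827 CPM in tamoxifen lesions, 7343 to 8833 CPM in vehicle lesions and 11186 to 11778 CPM in uninjured cord, and none of these markers was at 0. Other cell types differed too. Of 8 astrocyte markers, 7 were higher in tamoxifen lesions and 5 in vehicle lesions than in uninjured cord, 1 was higher in tamoxifen than in vehicle lesions, and their sum was 10060 to 13091, 8937 to 11341 and 5649 to 6482 CPM in tamoxifen lesions, vehicle lesions and uninjured cord. Macrophage and microglia markers summed to 694 to 1036, 808 to 1394 and 228 to 278 CPM in the same groups, and the pericyte and fibroblast sums differed as given above. Their part in the receptor results was not tested. Syt4, a synaptotagmin, had the smallest p of them between lesion groups, at 146 ± 10.7 CPM in tamoxifen and 102 ± 2.67 CPM in vehicle lesions (edgeR adjusted p = 0.000738). Of 17 dorsal horn markers, 3 were higher in tamoxifen than in vehicle lesions, led by Pdyn, the prodynorphin gene (log2 change 1.11, edgeR adjusted p = 0.00209), and Calb2, which encodes calretinin (0.53, edgeR adjusted p = 0.00929). Of 7 motor neuron markers, none passed between lesion groups and 1 was lower in each lesion group than in uninjured cord.

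When libraries were scaled to the neuron markers instead of all genes, the comparison asked how each receptor gene stood relative to neuronal RNA. This scaling moved the median log2 change of all genes by -0.16 in tamoxifen against vehicle lesions, by 0.51 in vehicle lesions against uninjured cord and by 0.34 in tamoxifen lesions against uninjured cord. The share of called genes that were higher was 12.2%, 93.4% and 89.9% in these comparisons, against 48.3%, 52.5% and 53.7% with TMM scaling. Glra1 and Glra3 remained lower than in uninjured cord in both lesion groups, with Glra1 at -1.45 in tamoxifen and -1.11 in vehicle lesions (edgeR adjusted p = 2.34e-05 and 1.93e-05) and Glra3 at -1.04 and -0.96 (edgeR adjusted p = 0.00124 and 0.00156). The other side of the set was different. Glrb and Gabra4 were higher than uninjured cord in tamoxifen lesions, by 0.21 (edgeR adjusted p = 0.0123) and 0.62 (edgeR adjusted p = 0.0026). Their values in vehicle lesions were -0.03 and -0.01, short of the test. The median log2 change of all genes on this scale was 0.36 in tamoxifen and 0.53 in vehicle lesions against uninjured cord.

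On the same scale, Glrb and Gabra4 were also higher in tamoxifen than in vehicle lesions, by 0.24 (edgeR adjusted p = 0.022) and 0.63 (edgeR adjusted p = 0.0139). Gabra3 and Gabra5 were lower in vehicle lesions than in uninjured cord, by -0.28 and -0.33, and did not pass in tamoxifen lesions, at -0.10 and -0.21. Members called in tamoxifen against vehicle lesions were 2 of 8, both higher, where 2.29% of all genes were higher and 16.5% lower. In vehicle lesions against uninjured cord they were 4 of 8, all lower, where 4.8% of genes were lower and 68.3% higher. In tamoxifen lesions against uninjured cord they were 4 of 8, 2 higher and 2 lower, where 53.7% of genes were higher and 6.05% lower. Over both directions, 18.8%, 73.1% and 59.8% of all genes were called in these comparisons.

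**Figure D4:**
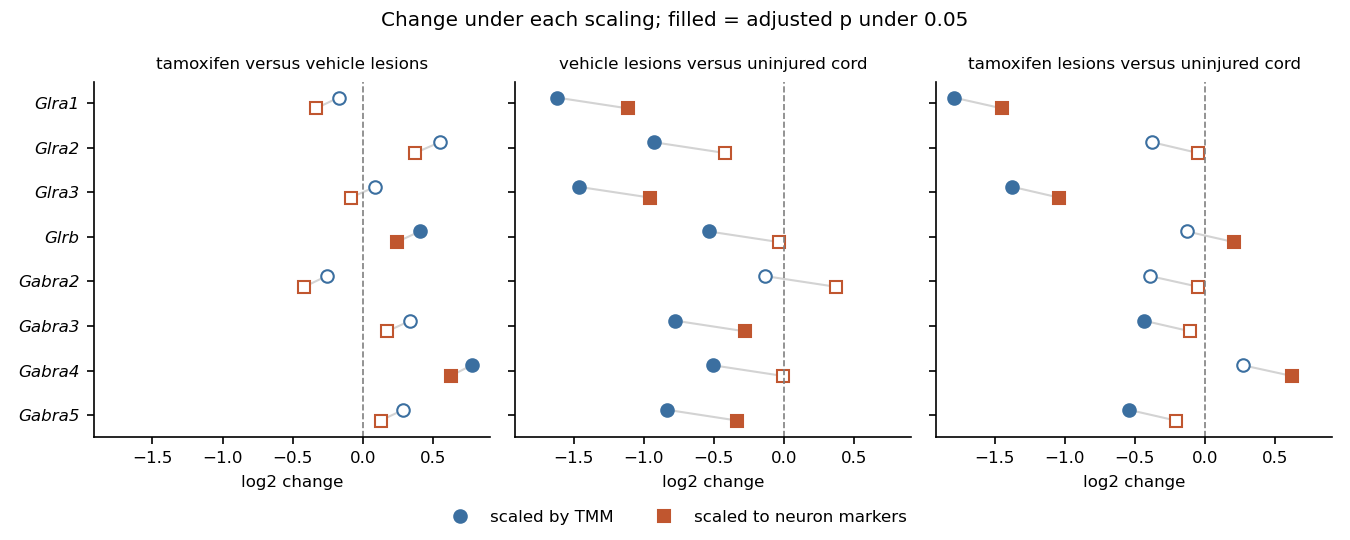
Log2 change of each receptor subunit gene (x axis) with libraries scaled by TMM over all genes (circles) and scaled to the 19 neuron markers (squares), filled where the adjusted p was under 0.05. Glra1 and Glra3 stay left of 0 and filled against uninjured cord under both scalings, and Glrb moves to the right of 0 in tamoxifen lesions versus uninjured cord under the neuron scaling.

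Sex, sample name series and muscle transcripts ran partly with the groups. Sex and series were each put into the fit as a term, and libraries high in muscle transcripts were left out in a separate fit. With a term for the sample name series, 0 of 8 members passed in edgeR between tamoxifen and vehicle lesions where 0.346% of all genes did. At an unadjusted p under 0.05 these were 4 of 8 members and 13.6% of all genes. Only library 452 then carries the tamoxifen group in the earlier series. In that fit Glra1 turned to 0.27 (edgeR adjusted p = 0.391). In counts, library 452 had 77.2 CPM of Glra1, against 50.1 ± 1.64 CPM over the 3 other tamoxifen lesions, and 18.5 CPM of Gabra4, against 24.1 ± 2.44 CPM. With a term for sex, Glrb and Gabra4 passed between lesion groups at 0.45 and 0.98 (edgeR adjusted p = 0.0426 and 0.0103). Without the 5 libraries high in muscle transcripts, 1 vehicle library remained, assumed to vary like the other groups, and no gene passed between lesion groups in edgeR (1239 at an unadjusted p under 0.05, which is 7.12% of all genes, and 2 of the 8 members). In vehicle lesions against uninjured cord the same fit called none of the 8 members, as given above, and the 7 members kept their sign, with Glra1 at -1.46 (edgeR adjusted p = 0.0582).

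Some genes had profiles over the 12 libraries close to those of the members, by the root mean square difference of centred log2 CPM. Nearest to Glra1 were Kcna2, Lingo4 and Kcnj6, with differences of 0.13, 0.15 and 0.18, where the median gene differed by 0.86. Nearest to Glrb were Stau2, Uchl5 and Tmem35, at 0.05 to 0.06, and nearest to Gabra3 were Nap1l2, Rit2 and Nrip2, at 0.06 to 0.07. Gabra5 was nearest to Inadl, Atp6v1g2 and Mpped1, at 0.08 to 0.09, and Gabra4 was nearest to Tfrc, Etv1 and Racgap1, at 0.17. Glra3 was nearest to Slc8a2, Zkscan16 and Tlx3, at 0.21 to 0.23, and Glra2 to Stac, Hs3st5 and Ahi1, at 0.16 to 0.17. Gabra2 had no close match, with Abcb4, Myo1a and Rgs22 at 0.27 to 0.28.

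Promoter sequence from RefSeq (GRCm38.p6) was matched to 7 of the 8 genes, with 2 starts for Gabra3 whose windows overlap. The 250 bases before the start are shown for Glrb (chr3:80913661-80913910, minus strand) and Gabra4 (chr5:71658309-71658558, minus strand), the members that were higher in tamoxifen than in vehicle lesions. Each runs 5′ to 3′ toward the gene, and capitals mark GC boxes, read as GGGCGG on either strand.
Glrb: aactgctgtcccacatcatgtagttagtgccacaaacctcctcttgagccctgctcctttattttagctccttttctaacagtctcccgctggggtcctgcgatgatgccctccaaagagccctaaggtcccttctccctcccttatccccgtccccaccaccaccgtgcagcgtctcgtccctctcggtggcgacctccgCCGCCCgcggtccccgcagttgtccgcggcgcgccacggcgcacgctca
Gabra4: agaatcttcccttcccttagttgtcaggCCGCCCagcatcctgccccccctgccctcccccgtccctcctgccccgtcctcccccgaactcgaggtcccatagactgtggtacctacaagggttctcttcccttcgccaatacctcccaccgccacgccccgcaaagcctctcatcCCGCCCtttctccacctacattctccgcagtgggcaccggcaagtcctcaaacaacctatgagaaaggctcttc
Glrb held 1 GC box and Gabra4 held 2 that do not overlap, in windows of 62.4% and 61.2% G and C. The median over all promoters was 52.4%. Searched on both strands in the same 250-base windows, the GC box occurred in 5 of the 7 genes (Gabra2, Gabra4, Glra2, Glra3 and Glrb). By promoter this was 5 of 8, against 32.7% of 32851 RefSeq promoters. Counted over the 7 genes, CCAAT occurred in 5 (33.8% of all promoters), TATAAA in 2 (12.4%) and the E-box CANNTG in 4 (66.2%). The AP-1 motif TGANTCA and the cAMP response element TGACGTCA occurred in 0 of 7, against 6.75% and 1.55% of all promoters, which says only that these letters are not in the windows.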

How the data were processed

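The submitters' processing notes name TopHat, Picard, Cufflinks, HTSeq and the mm9 build. The role of each tool, the strand setting, the read length and the handling of ambiguous reads are not stated in the labels. Whole-number counts per Ensembl gene, deposited by the authors, were used for every test, and the authors' FPKM values for levels per length, shares and alternatives. Gene symbols came from the FPKM table and, for 99 identifiers, from the reference. The reference was on GRCm38, so it gave names and sequences but no positions in the authors' build. Reads carry no molecular identifiers, so depth covers counting error alone.

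Tests used R 4.3.3 and edgeR 4.0.16: filterByExpr by group (minimum count 10, minimum total 15), TMM scaling and 1 quasi-likelihood fit of 3 group means over 12 libraries (9 residual degrees of freedom). Tests were two-sided, with Benjamini-Hochberg adjustment over all 16473 genes at 0.05, and were tested on simulated data. CPM values are TMM-normalised, as mean ± SD of 4 libraries. Sex was read from Xist and Y-linked genes. Libraries whose muscle markers had a mean log2 CPM above 2 were called high in muscle transcripts. Counting was compared with FPKM over genes of at least 200 counts. A step was an average log2 difference above 0.5 between the sample name series without overlap.

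The members and the 17 gene lists were chosen with earlier results of these data known. All members are named. Of the other lists, up to 4 genes with the smallest p in each comparison could be named, and other subunits, transmitter genes, Hras1, Nras and Slc1a3 whatever their values; a few such genes are not reported here. The 3 genes nearest each member had the smallest root mean square difference of centred log2 CPM (prior count 2), unnamed genes passed over. Motifs were searched in the 250 bases before each start. Alternatives were DESeq2 1.42.0 size factors and Wald test, library totals, neuron marker scaling, a fit without a filter, a filter of 1 CPM in 8 libraries, limma 3.58.1 with voom or on log2 FPKM (pseudocounts of 1 or 0.1), the 8 libraries compared, terms for series and sex, a fold of 2, and leaving out libraries.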

Additional observations from a re-analysis of the deposited data

Results flagged for a closer look

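Glra1 in vehicle lesion 429, at 57.8 CPM, lay apart from its group, whose other 3 libraries stood at 65.6 to 66.2 CPM. Glra1 in tamoxifen lesion 452, at 77.2 CPM, lay above the other 3 tamoxifen lesions, at 48.3 to 51.4 CPM. Among other named genes, Gabrg1 in vehicle lesion 429 was 63.8 CPM and Slc6a11 in uninjured cord 376 was 594 CPM, each separated from the rest of its group by a gap that took up most of the group's range. About 1 in 20 groups of 4 would show such a gap by chance. Many more groups were searched than are named here, and the share of them with such a gap was near that rate.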

How the results depend on the processing

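Of 504 values of the 8 receptor genes under an alternative, 461 kept their direction and side of the threshold, 21 kept their direction but missed it, 8 newly passed it and 14 changed sign; of 1193 values of the other named genes these were 1055, 100, 8 and 30. Where a value changed, the cause was not tested beyond what the setting itself alters. The counts of receptor genes that follow should be read beside those of all genes in the next paragraph. With the series term, 11.8% of all genes were called in tamoxifen lesions against uninjured cord, 4.29% lower and 7.55% higher. Receptor genes called between tamoxifen and vehicle lesions were 0 at a fold of at least 2, 0 without the libraries high in muscle transcripts and 0 with the sample name series term, and 2 to 4 with a library left out, the 4 without 549. In vehicle lesions against uninjured cord they were 2 at that fold, 4 with neuron marker scaling, 0 without the muscle-high libraries (7 at an unadjusted p under 0.05, as were 22.5% of all genes) and 7 with any library left out. In tamoxifen lesions against uninjured cord they were 2 at that fold, 2 without the muscle-high libraries, 1 with the series term and 4 to 5 with a library left out.

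All genes called between lesion groups, 2655 as reported, were 615 at a fold of at least 2, 1521 and 1442 on log2 FPKM with 1 and 0.1 added, 1513 in the 8 libraries alone, 57 with the series term, 989 with the sex term, 0 without the muscle-high libraries and 1236 to 4631 with a library left out (4631 without 452, 1236 without 513, 1324 without 564, 1688 without 457). In vehicle lesions against uninjured cord, 8368 as reported, they were 2052 at that fold, 296 without the muscle-high libraries and 7267 to 8112 with a library left out. In tamoxifen lesions against uninjured cord, 8063 as reported, they were 1673, 3540 without the muscle-high libraries, 1951 with the series term and 6717 to 8895 with a library left out. With library totals alone, 39.3% of calls between lesion groups were higher.

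Signs turned as follows on the log2 scale. Between tamoxifen and vehicle lesions, Glra1 was 0.27 with the series term. Neuron marker scaling gave Glra3 -0.087, Slc6a5 -0.053 and Slc12a5 -0.093. Without the muscle-high libraries Glra3 was -0.17, Gabrg3 -0.16, Slc6a5 -0.0045 and Slc12a5 -0.14. Grin2a was -0.077 and -0.13 on FPKM with 1 and 0.1 added. With a library left out, Glra3 lay between -0.057 and 0.25, Gabrq between -0.10 and 0.56 and Slc12a5 between -0.010 and 0.15. In vehicle lesions against uninjured cord, Gabra2 was 0.37 with neuron marker scaling, 0.82 without the muscle-high libraries, 0.063 with the sex term and between -0.37 and 0.0053 with a library left out. Gabrg1, at 0.00 as reported, was -0.0060 with DESeq2 size factors, -0.018 without a filter, -0.0055 in the DESeq2 Wald test, -0.0017 in limma-voom, -0.14 and -0.15 on FPKM, -0.16 without the muscle-high libraries and between -0.13 and 0.031 with a library left out. Neuron marker scaling there gave Gabrb1 0.081, Gphn 0.098, Gabarapl2 0.18 and Syt4 0.13. In tamoxifen lesions against uninjured cord it gave Glrb 0.21, Gabrb1 0.15, Gphn 0.11 and Slc6a11 0.075. There Gabra2 was 0.037 without the muscle-high libraries, Gabra4 -0.033 and Pdyn -0.014 with the series term, and Calb2 0.0057 with the sex term.

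No paired analysis was possible because the mouse numbers are unique to each library. Group and sample name series overlap through library 452 alone, and the fewest counts lay in Glra3 and Glra4, where depth limits precision most.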
